A study of Mus musculus with 2 samples.

Results

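Whole livers of MMP-14 knockout mice were set against those of wild-type mice on 1 two-colour oligonucleotide array, 1 of the 2 arrays of the series. The array was chosen by its title, which names the stage P1. The design text gives E18.5 for the same livers, and the conflict was not settled. RNA of 2 wild-type livers was mixed and carried Cy5, and RNA of 2 MMP-14 KO livers was mixed and carried Cy3. The dyes were not swapped, so a dye effect on a gene and the genotype cannot be told apart. How the Mmp14 allele was inactivated, in which cells, and on which strain background are details not given in the sources used here. The other array compared the same genotypes in Dlk+CD45-CD71-Ter119- cells sorted from E14 livers (E14.5 in the design text), pooled from 3 livers a genotype, and its values appear only beside a few genes. The members were the named genes whose probe identifiers mark gene probes and whose signal passed a detection threshold in both channels, which left 12715 of 16390 named genes on the array.

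Mmp14 encodes a membrane-anchored metalloproteinase that cleaves collagens and other matrix proteins at the cell surface and activates the secreted protease MMP-2. The liver around birth changes its work. It gives up blood formation, in which erythroid cells mature beside macrophages, and takes on gluconeogenesis, amino acid breakdown, ammonia disposal and bile acid synthesis, many of whose genes respond to glucocorticoids and to fasting signals. Hepatocytes make nearly all plasma proteins, while stellate cells, portal fibroblasts, smooth muscle and endothelium form the stroma and vessels.

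Every ratio is the log2 of the knockout level over the wild-type level, after background correction and loess, so 0 means the same relative level as the bulk of genes, 1 is 2-fold higher and -1 is 2-fold lower. Signals are spot intensities before normalisation, in scanner units, and are given as wild type first and knockout second. Knockout signals exceeded wild-type signals by a median factor of 1.56 over detectable genes, so a gene with equal signals has a negative ratio. With 1 array there is no replicate, no test and no error between animals, so precision is limited by the number of arrays. An array-internal measure of noise was used in its place: each channel was moved by 2 SD of the blank spots in opposite directions, which shifted the ratio by a median of 0.15 in the dimmest of 4 equal brightness classes of genes and 0.014 in the brightest. For 139 genes with more than 1 detectable probe, the probes of a gene had a median SD of 0.12. Whole-number readings, found from 37242 upwards for wild type and from 33958 for knockout, lie at the top of the scanner's range, and ratios of such genes are named as such. The offset of 50 used in the correction draws the ratios of dim genes towards 0, and the authors' deposited log2 ratio, which has no offset, is given beside some of them.

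The targeted gene was dim and lower in the knockout. Mmp14 had signals of 161 and 104, against thresholds of 50.5 and 87.0, and a ratio of -1.30 with a noise range from -1.40 to -1.19. The authors' deposited table gave -2.83. The knockout signal remained above its threshold, and the sources used here do not say which part of the gene the probe covers. The liver markers were bright or clear in both channels. Alb (albumin) had signals of 54365 and 44636, Tat (tyrosine aminotransferase) 2775 and 15131, Pck1 (phosphoenolpyruvate carboxykinase) 6614 and 20588 and Tdo2 (tryptophan dioxygenase) 300.1 and 1625. All 4 lay above both thresholds, so RNA of liver parenchyma was present in both pools.

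The wild-type pool also carried lung genes, which stand apart from the rest and are given before the liver genes. Of the alveolar type 2 list, the wild-type channel detected 15 genes and the knockout channel 11, and of the airway list 17 and 10. The summed signal of the alveolar type 2 genes detectable in both channels was 31698 in wild type and 1522 in knockout, and that of the airway genes 11961 and 1241. The list medians were -2.07 for alveolar type 2, -1.13 for alveolar type 1, -0.92 for airway and -0.72 for lung stroma and endothelium. The alveolar type 1 sums were close, 29718 and 29086, and Igfbp2, which liver also makes, had signals of 24480.3 and 27332 within them. Sftpc, the surfactant protein C gene that defines type 2 cells, was at 24038 and 187, the latter against a knockout threshold of 87.0. Genes of other organs showed no such pattern, with medians of -0.019 for pancreas, -0.032 for intestine and stomach, -0.079 for kidney and adrenal, -0.0028 for heart and skeletal muscle and -0.027 for skin and neural genes. These genes were dim, with median wild-type signals from 56.0 (muscle) to 101 (intestine) against a threshold of 50.5, which draws their ratios to 0. Their medians in the authors' deposited table ran from -0.061 (pancreas) to -0.43 (kidney and adrenal). Of the 56 detectable genes of these organs 0 were lower by 2-fold, where the share over all genes, 1.45%, would give few. Tff3 (1.05) alone was higher by 2-fold. Lung also holds vessels, fibroblasts, smooth muscle and blood cells, so medians of stromal and vessel lists are also given without lung-list genes. Few genes of those lists are in a lung list, so leaving them out cannot separate lung from liver stroma. The part of this lung signal in the ratios of genes outside the lung lists was not tested.

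**Figure D1:**
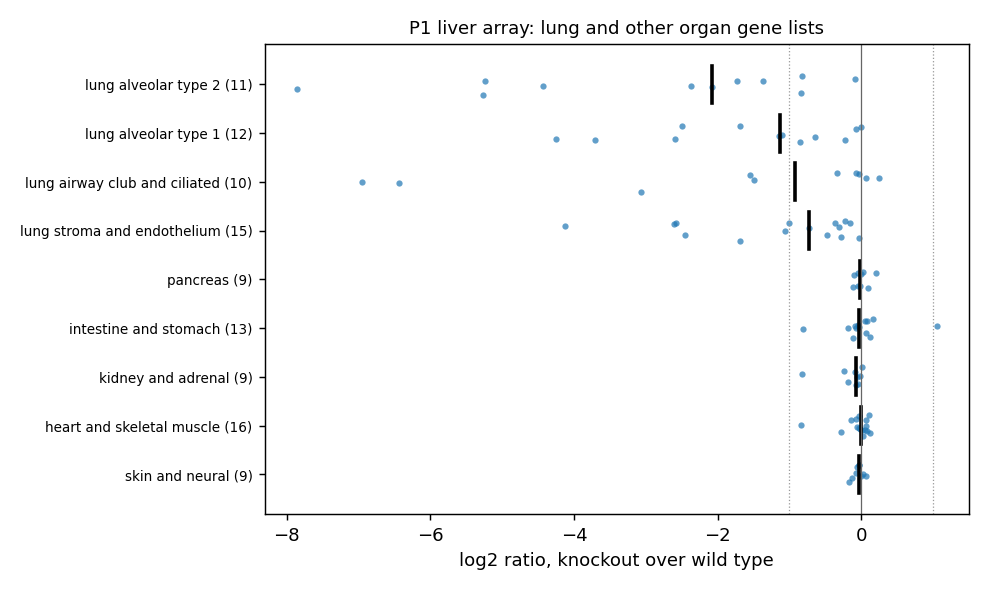
Log2 ratio of knockout over wild type (horizontal axis) for each gene detectable in both channels of the P1 liver array, by list of lung and other organ genes (vertical axis, number of genes in brackets). Points are genes, black bars are list medians and dotted lines mark 2-fold; the lung lists reach down to -7.85 and the other organ lists gather near 0.

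Among all detectable genes the knockout was higher by 2-fold or more for 71 (0.558%) and lower by as much for 185 (1.45%). Of the higher genes 21 were among the 356 detectable genes of the metabolism lists and 49 among the 11898 in no list. The blood and stroma lists, with 149 and 227 detectable genes, held 0 of them, and a share of 0.558% would give few there. The lower genes included 46 of 227 in the stroma lists, 27 of 48 in the lung lists and 18 of 356 in the metabolism lists. They also included 7 of 149 in the blood lists and 93 of 11898 in no list. These groups are broad, and the blood lists include the cell cycle list. The stroma lists include the immediate early, protease, bile duct and mesothelium lists. The metabolism lists include ribosomal proteins, chaperones, imprinted growth genes, the IGF axis and the EGF receptor family. At 1.5-fold the counts were 362 (2.85%) higher and 524 (4.12%) lower. The authors' deposited table held 403 (3.17%) higher and 641 (5.04%) lower genes at 2-fold. Over all genes 6301 (49.6%) had a ratio above 0, and the middle of the distribution ran from -0.13 to 0.13 between its quartiles.

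**Figure D2:**
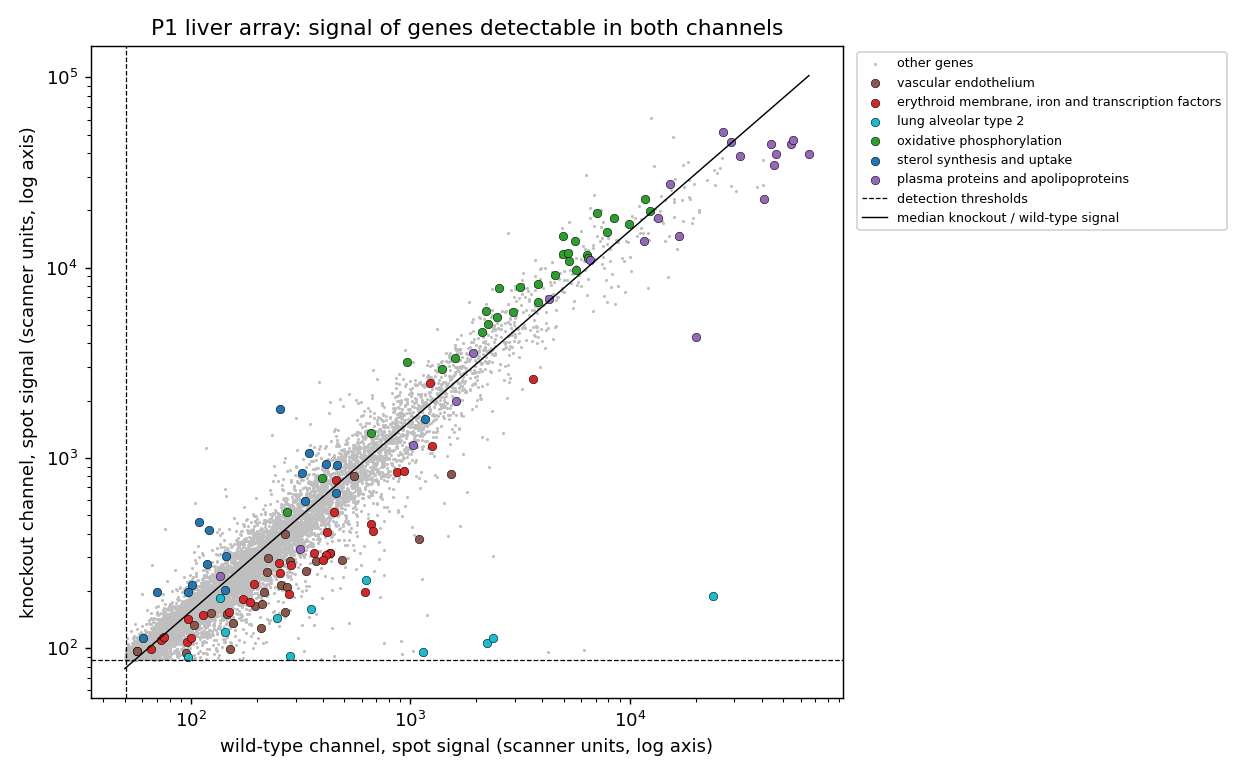
Wild-type signal (horizontal, scanner units, log axis) against knockout signal (vertical, scanner units, log axis) of each gene detectable in both channels, with 6 lists in colour. Dashed lines are the detection thresholds of 50.5 and 87.0 and the solid line is the median knockout to wild-type signal of 1.56; sterol and oxidative phosphorylation genes lie mostly above it, and vascular, erythroid and alveolar type 2 genes below it.

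Genes of cholesterol synthesis were higher in the knockout, with the highest median of the lists. Of 17 detectable genes of sterol synthesis and uptake, 14 had a ratio above 0, 8 were at least 1.5-fold higher, 4 passed 2-fold on the higher side and 0 on the lower, with a median of 0.58 (0.82 in the authors' deposited table). Msmo1, which removes the methyl groups at carbon 4 of sterol intermediates, had signals of 255 and 1814 and a ratio of 2.25. Idi1, the isopentenyl diphosphate isomerase, had signals of 109 and 460.2 (ratio 1.59). The lanosterol demethylase Cyp51 had signals of 121 and 415 (ratio 1.29), and Hsd17b7, a sterol ketoreductase, signals of 346 and 1057 (ratio 1.05). Each of these 4 stood above the 1.56-fold line by much more than the noise range, which for Idi1, the dimmest, ran from 1.55 to 1.64. Sqle, the squalene epoxidase, had a ratio of 0.81, and Insig1, which holds the sterol sensor in the endoplasmic reticulum, 0.97. The transcription factor Srebf2, which drives the pathway, stood at -0.03, and Lss and Ebp, which cyclise squalene epoxide and isomerise a later sterol, at -0.058 and -0.18. Most genes of the list were above 0, and the ratio of the Srebf2 message was near 0.

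The promoters of the 4 highest sterol genes are shown because most members lay on the same side of 0. Each is the 250 bases before the RefSeq transcription start (GRCm38.p6), written 5′ to 3′ on the gene's strand, with the letters CCAAT, the box bound by the factor NF-Y, or its reverse complement ATTGG in capitals. Msmo1 lies on chr8:64733579-64733828 (minus strand), Idi1 on chr13:8885356-8885605 (plus), Cyp51 on chr5:4104698-4104947 (minus) and Hsd17b7 on chr1:169969206-169969455 (minus).
Msmo1: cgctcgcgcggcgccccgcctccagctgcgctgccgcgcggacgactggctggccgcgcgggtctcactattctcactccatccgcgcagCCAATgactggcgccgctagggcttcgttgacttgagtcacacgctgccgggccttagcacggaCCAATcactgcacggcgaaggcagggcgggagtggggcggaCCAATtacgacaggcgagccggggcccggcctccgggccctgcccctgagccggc
Idi1: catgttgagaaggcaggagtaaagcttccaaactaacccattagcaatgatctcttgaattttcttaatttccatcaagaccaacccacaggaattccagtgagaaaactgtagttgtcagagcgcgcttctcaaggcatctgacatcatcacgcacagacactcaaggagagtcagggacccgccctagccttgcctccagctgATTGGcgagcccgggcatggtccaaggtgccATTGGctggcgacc
Cyp51: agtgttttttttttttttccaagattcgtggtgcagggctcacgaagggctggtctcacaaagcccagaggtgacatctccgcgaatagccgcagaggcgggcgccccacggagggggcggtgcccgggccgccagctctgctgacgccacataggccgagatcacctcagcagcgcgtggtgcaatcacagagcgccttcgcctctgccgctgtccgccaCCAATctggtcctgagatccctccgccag
Hsd17b7: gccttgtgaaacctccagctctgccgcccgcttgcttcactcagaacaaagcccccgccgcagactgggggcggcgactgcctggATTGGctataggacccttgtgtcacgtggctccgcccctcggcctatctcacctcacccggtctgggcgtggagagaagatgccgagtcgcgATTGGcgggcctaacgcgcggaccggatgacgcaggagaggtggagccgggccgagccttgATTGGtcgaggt
Searched on both strands, CCAAT was found in 13 of 14 sterol promoters with an entry (92.9%). It was in 35.5% of 10216 promoters of detectable genes and in 34.2% of all 27025 promoters of this length. The 13 included Lss, Ebp and Srebf2, whose ratios were below 0. In the other lists searched the share ran from 27.3% for the respiratory chain to 64.7% for amino acid breakdown. The sterol regulatory element, searched as TCACNCCAC, was in 0 of the 14 and in 0.92% of the detectable genes' promoters. A CCAAT box could begin on the last base of TCACNCCAC, and each motif was counted on its own. These are letter matches only, and a missing match says only that the letters are not in this window.

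Fatty acid and triglyceride synthesis genes lay on both sides of 0. Of 19 detectable genes 8 were above 0, and the median was -0.10. Lpin1, a phosphatidate phosphatase that also acts as a coactivator in fasting liver, had signals of 118 and 1125 and a ratio of 2.73, or 6.61-fold. Me1, the malic enzyme, had signals of 347 and 1097 (ratio 1.09). In the other direction Scd1, the stearoyl-CoA desaturase, had signals of 414 and 324 (ratio -0.91). Fasn, the fatty acid synthase, stood at -0.46, Srebf1, the lipogenic transcription factor, at -0.40 and Scd2 at -0.38. Only Scd1 of these passed 1.5-fold on the lower side.

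Fatty acid oxidation genes were divided in the same way. Its list had 12 of 20 members above 0 and a median of 0.054. Pdk4, which shuts pyruvate out of oxidation during fasting, had signals of 229 and 676 and a ratio of 1.03. The nuclear receptor Ppara stood at 0.49 and the peroxisomal enzyme Ehhadh at 0.50. Fabp1, the liver fatty acid binding protein, had signals of 30404 and 25402 (ratio -1.06), the ketone body enzyme Bdh1 signals of 2093 and 2046 (ratio -0.69), and Plin2, which coats lipid droplets, -0.61 (0.243 with the local background). Cpt1a, which admits fatty acids to mitochondria, was at -0.18 and Hadha at -0.23.

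Genes that break down amino acids were higher in the knockout. Of 24 detectable genes 21 were above 0, 8 were past 1.5-fold on the higher side and 3 past 2-fold, with none past either size on the lower side and a median of 0.44. Tdo2, which opens the ring of tryptophan, had signals of 300.1 and 1625 and a ratio of 1.86, and Tat signals of 2775 and 15131 (ratio 1.73). Both genes are classical targets of glucocorticoids in perinatal liver. Sds, the serine dehydratase, had signals of 428 and 1717 (ratio 1.41), Got1, the cytosolic aspartate aminotransferase, 0.98 and Aass, of lysine breakdown, 0.89. Kynu, Fah, Hgd and Hal, which act further along the tryptophan, tyrosine and histidine routes, had ratios of 0.57, 0.43, 0.71 and 0.70. Mat1a, which makes S-adenosylmethionine, was the lowest at -0.45, with Prodh2 at -0.25 and Agxt at -0.13.

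Gluconeogenic genes leaned the same way. Of 12 detectable genes 4 were at least 1.5-fold higher and 0 lower by as much, with a median of 0.25. Ppargc1a, a coactivator induced by fasting, had signals of 143 and 688 and a ratio of 1.67, the mean of 2 probes with an SD of 0.41 between them. Pck1, the committing enzyme of gluconeogenesis, had a ratio of 0.89, Slc37a4, the glucose-6-phosphate transporter, 0.76 and Gbe1, the glycogen branching enzyme, 0.70. Pcx, which makes oxaloacetate from pyruvate, stood at -0.13, and Pklr, of glycolysis, at -0.069. In the urea cycle, Cps1, which fixes ammonia, had signals of 452 and 1421 and a ratio of 1.06, and Glul, the glutamine synthetase, signals of 466 and 1186 (ratio 0.76). Asl and Slc25a15 had ratios of 0.54 and 0.57, whereas Arg1 and Otc, other enzymes of the same cycle, had ratios of 0.075 and -0.0069. The median of the 9 urea cycle genes was 0.075, so the list held both higher genes and genes at about 0.

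Genes of the mitochondrial respiratory chain were slightly higher across the list. Of 30 detectable genes 29 were above 0, against 49.6% of all genes, and 6 were at least 1.5-fold higher and 0 lower by as much, with a median of 0.41 (0.64 in the authors' deposited table). Cycs, which encodes cytochrome c, had signals of 967 and 3177 and a ratio of 1.07. Uqcrfs1, the Rieske protein of complex III, had signals of 2529 and 7836 (ratio 0.94), Cox5a of complex IV signals of 4985 and 14648 (ratio 0.82), and Ndufs3 of complex I signals of 2215 and 5909 (ratio 0.73). Members of all the proton-pumping complexes were among them, and Cox4i1 at -0.08 was the only member below 0. Outside the list the 2-fold higher genes held Ndufb4 (1.19), a subunit of complex I, Ndufaf4 (1.11), one of its assembly factors, Coa5 (1.12), an assembly factor of complex IV, and Coq10b (1.06), which were picked out after their values were seen. Ribosomal proteins, which are brighter, had a median of -0.098 and 7 of 24 members above 0. Their median was 0.086 in the authors' deposited table. The wild-type signals ran from 273 to 12339 (median 4193) for the respiratory chain and from 75.4 to 24209 (median 9059.97) for the ribosome.

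The promoters of the 2 highest members of the respiratory chain list each held the cyclic AMP response element TGACGTCA, shown in capitals in the 250 bases before the start on the gene's strand, as above (RefSeq, GRCm38.p6). Cycs lies on chr6:50566570-50566819 (minus strand) and Uqcrfs1 on chr13:30545317-30545566 (minus).
Cycs: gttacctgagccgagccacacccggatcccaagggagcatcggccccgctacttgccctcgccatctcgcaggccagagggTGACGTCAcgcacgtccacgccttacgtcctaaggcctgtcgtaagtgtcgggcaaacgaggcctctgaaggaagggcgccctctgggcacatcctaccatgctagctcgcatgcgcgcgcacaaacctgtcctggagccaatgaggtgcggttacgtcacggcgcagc
Uqcrfs1: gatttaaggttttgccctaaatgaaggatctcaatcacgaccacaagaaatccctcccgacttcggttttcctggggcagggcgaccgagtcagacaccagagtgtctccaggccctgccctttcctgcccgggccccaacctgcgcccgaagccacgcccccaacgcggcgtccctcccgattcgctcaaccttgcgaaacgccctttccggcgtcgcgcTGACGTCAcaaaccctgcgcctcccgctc
On both strands, which read alike for this motif, these were 2 of 22 promoters of the list (9.09%). The share was 2.45% among promoters of detectable genes and 1.56% among all promoters. Vascular genes had the motif in 1 of 13 promoters (7.69%, Flt1, ratio -0.037). Glucocorticoid and clock genes had it in 1 of 18 (5.56%, Dusp1, ratio -0.93), and the other lists searched in 0. The NRF1 site and the estrogen-related receptor element, also searched, were each in 0 of the 22. They were in 1.43% and 0.235% of detectable genes' promoters.

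Bile acid and sterol disposal genes leaned to the higher side, with 12 of 15 above 0, 5 past 1.5-fold on the higher side, 0 on the lower side and a median of 0.42. Abcg5, a subunit of the canalicular sterol exporter, had signals of 239.7 and 903 and a ratio of 1.37, and its partner Abcg8 0.46. Cyp7a1, the rate-limiting enzyme of bile acid synthesis, had signals of 136 and 311 (ratio 0.71). Cyp27a1 of the alternative route had a ratio of 0.89, the uptake carrier Slco1b2 0.67 and the export pump Abcc2 0.72. The bile acid carriers Slc10a1 and Abcb11 stood at -0.05 and 0.097. Nr0b2, the repressor that bile acids induce, was the lowest at -0.28.

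Drug-metabolising enzymes went both ways, with 6 of 21 higher and 3 lower by 1.5-fold or more and a median of 0.072. Cyp2a5 had signals of 432 and 1971 and a ratio of 1.59, and the glutathione transferases Gstm1 and Gsta3 had ratios of 0.98 and 0.98. Among the highest genes outside the lists, the glutathione transferase Gsta2 had signals of 76.2 and 420.5 (ratio 1.98, deposited 3.15) and Cbr3, a carbonyl reductase, signals of 105 and 577 (ratio 1.97). On the lower side Cyp2e1 had signals of 14436 and 13863 (ratio -0.82), and Cyp2d26 -0.87. Cyp2f2 had signals of 439 and 232 (ratio -1.50), and it is also a club cell gene held by the airway list, whose summed signal was 11961 in wild type and 1241 in knockout.

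**Figure D3:**
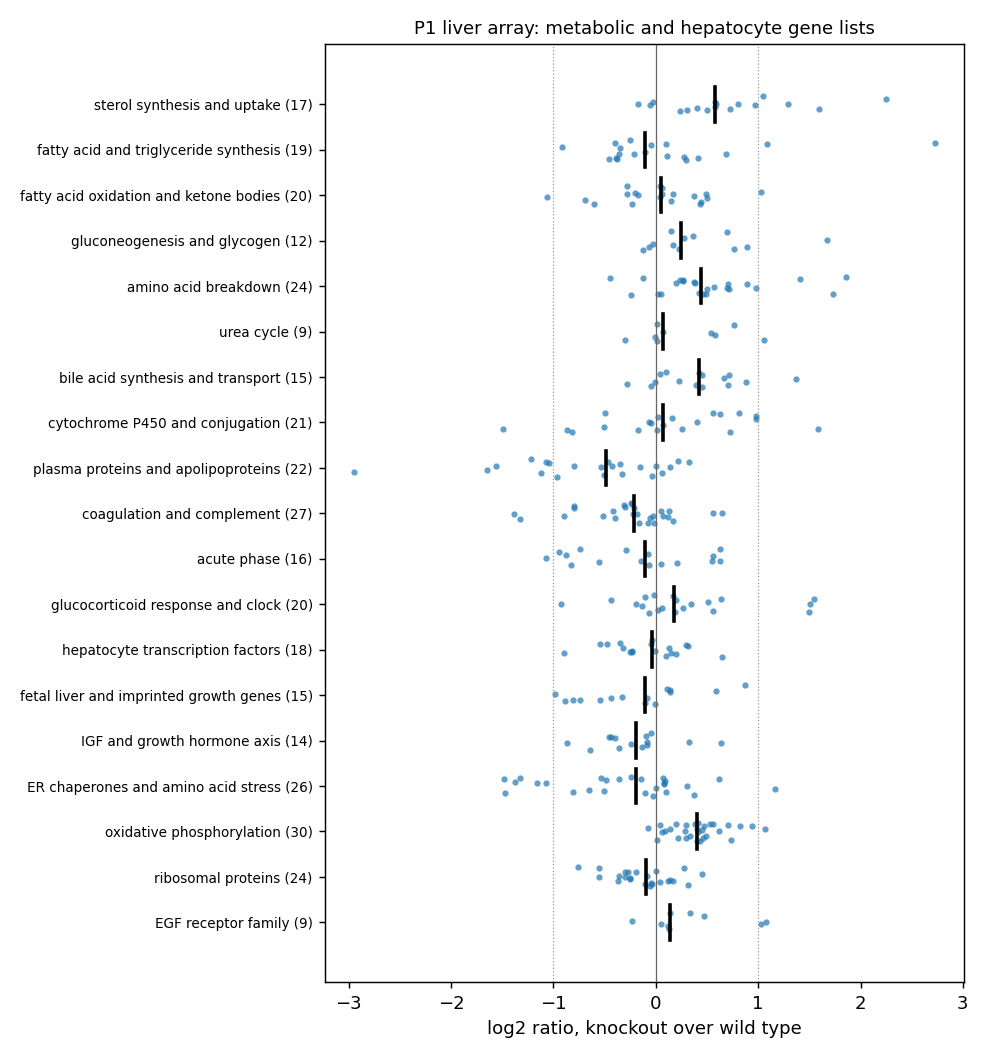
Log2 ratio of knockout over wild type (horizontal axis) for each detectable gene of the P1 liver array, by metabolic, secretory and signalling list (vertical axis, number of genes in brackets). Points are genes, black bars are list medians and dotted lines mark 2-fold; the sterol list has a median of 0.58, amino acid breakdown 0.44, oxidative phosphorylation 0.41 and plasma proteins -0.49.

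Secreted proteins lay on the other side from many metabolic enzymes of hepatocytes. Of 22 plasma protein and apolipoprotein genes 4 were above 0 and 7 were at least 2-fold lower, with a median of -0.49. Apoa4, a lipoprotein constituent, had signals of 19962 and 4340.01 and a ratio of -2.94, below the scanner's top range in both channels. Hpx, which binds free heme, had signals of 16694 and 14583 (ratio -0.96). The carriers Ttr (-1.65), Ahsg (-1.56), Alb (-1.12), Trf (-1.08) and Apoe (-1.22) had whole-number readings, and for Ahsg the wild-type signal was 65535, so their ratios are less certain than the others. Among the 12 members without such readings 3 were above 0 and the median was -0.34. The fetal albumin relative Afp had signals of 26566 and 51546, the second a whole-number reading, and a ratio of 0.14, likewise less certain. The corticosteroid carrier Serpina6 had a ratio of 0.32. The median of the list depends on the scale, and was -0.24 in the authors' deposited table and -0.0034 relative to all genes when median centring replaced loess. The 80 genes with a wild-type signal of at least 10000 had a median of -0.44, and of -0.099 in the authors' deposited table.

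Coagulation and acute phase genes did not reach the difference of 0.25 at which a list is called lower. Of 27 coagulation and complement genes 7 were above 0, with a median of -0.22, and of -0.0065 in the authors' deposited table. The fibrinogen chains Fgb, Fgg and Fga had ratios of -1.38, -1.33 and -0.80, the first 2 at whole-number readings, and the lectin Mbl2 -0.90. F11 and F9, of the intrinsic coagulation route, had ratios of 0.64 and 0.56. Of 16 acute phase genes, whose median was -0.11 (-0.38 deposited), 5 were at least 1.5-fold lower and 2 higher by as much. Serpina3n, a protease inhibitor, had signals of 2351 and 1764 and a ratio of -1.08, Hp, the haptoglobin gene, -0.95 and Apcs, the serum amyloid P component, -0.87. Hamp, the iron hormone hepcidin, had signals of 5564 and 14292 (ratio 0.63), and Saa2 -0.072, so the acute phase genes lay on both sides of 0.

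The list of chaperones and amino acid stress genes had a median of -0.19, with 10 of 26 above 0, 6 lower by 2-fold or more and 1 higher by as much. Its lowest members were chaperones of the endoplasmic reticulum. Hsp90b1 had signals of 14903 and 8962 and a ratio of -1.49, and Hspa5, which encodes the chaperone BiP, signals of 12164 and 7834 (ratio -1.38). Sdf2l1 and Creld2, of the same compartment, had ratios of -1.47 and -1.33, and the disulphide isomerases Pdia6, Pdia4 and Pdia3 -1.16, -0.81 and -0.66. Among its amino acid stress genes Trib3 had a ratio of 0.61, Psat1 0.37, Atf4 0.076, Asns 0.086 and Ddit3 -0.14, and Ddit4, which restrains mTOR and responds to glucocorticoids, had signals of 135 and 425 (ratio 1.17). The transcription factor Xbp1, which induces many of the chaperones, had signals of 1503 and 1606 (ratio -0.55).

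Among glucocorticoid-responsive and clock genes, 3 of 20 were higher by 2-fold or more and 0 lower by as much, with a median of 0.17. Sult1e1, the estrogen sulfotransferase, had signals of 66.7 and 275 and a ratio of 1.55 (deposited 2.93). The metallothionein gene Mt2, whose product binds zinc, had signals of 6342 and 30647 (ratio 1.51). Its neighbour in function Mt1 had signals of 12483 and 61428, the second a reading at the top of the range, and a ratio of 1.498. The direct glucocorticoid receptor targets Fkbp5, Tsc22d3 and Per1 stood at 0.51, 0.16 and 0.19. Dusp1, a phosphatase that is also an immediate early gene, was the lowest at -0.93. The core clock genes Clock, Cry1, Per2 and Dbp had ratios of 0.18, -0.11, -0.19 and -0.14, and none of the clock genes passed 1.5-fold. The 3 members past 2-fold were Sult1e1, Mt2 and Mt1, and the part of glucocorticoids in these ratios was not tested.

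Hepatocyte identity genes lay close to 0. Of 18 transcription factors 0 passed 2-fold in either direction, and the median was -0.041. The shares over all genes, 0.558% higher and 1.45% lower, would give few in a list of this size. Nr5a2, a regulator of bile acid genes, had signals of 148 and 327 and a ratio of 0.65, Hnf4a signals of 1118 and 2165 (ratio 0.31), and Cebpa -0.23. Tbx3, a factor of hepatoblasts, had signals of 174 and 139.8 (ratio -0.90). Imprinted growth genes were mostly on the lower side: the growth factor gene Igf2 had signals of 16516 and 14214 (ratio -0.98), the noncoding RNA Meg3 signals of 832 and 683 (ratio -0.89), Mest -0.81, Plagl1 -0.74 and H19 -0.44. Peg3, another imprinted gene, was an exception with signals of 260.3 and 689 (ratio 0.87), and Dlk1 stood at 0.11. In all 4 of 15 members were at least 1.5-fold lower and 2 higher by as much. The Igf2 ratio was 2.80 when the local background entered the correction, so its direction depends on that choice.

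In the EGF receptor family 8 of 9 genes lay above 0 and 2 passed 2-fold, with a median of 0.14. Egfr had signals of 363 and 1135 and a ratio of 1.07, and Errfi1, its feedback inhibitor, signals of 2351 and 7722 (ratio 1.02). The ligand genes Nrg4, Egf and Hbegf had ratios of 0.47, 0.33 and 0.12. In the IGF and growth hormone axis 2 of 14 were above 0. Igfbp1, a binding protein induced by fasting, stood at 0.63 with a whole-number reading, Igf1 at -0.24, the receptor Igf1r at -0.46 and the growth hormone target Socs2 at -0.43. Igfbp2 at -0.64 and Igfbp7 at -0.86 were the lowest, and both changed sign under another setting (Igfbp2 to 0.0052 with median centring, Igfbp7 to 0.842 with the local background).

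Erythroid genes were lower in the knockout. Of 30 detectable erythroid genes 2 were above 0, 15 were past 1.5-fold on the lower side and 7 past 2-fold, with a median of -0.58 (-0.76 in the authors' deposited table). In bulk tissue, fewer cells of a type and less RNA per cell cannot be told apart. Klf1, a master regulator of red cell genes, had signals of 279 and 192 (ratio -1.10). The regulators Tal1 and Gata1 had signals of 431 and 316 (ratio -1.01) and of 255 and 248 (ratio -0.57). The membrane and enzyme genes Rhd, Car2, Car1 and Slc4a1, which encode a blood group antigen, carbonic anhydrases and the anion exchanger, had ratios of -1.15, -1.16, -0.97 and -0.75. The lowest, Tspan8 (-2.27) and Mgst3 (-1.31), are also expressed outside erythroid cells. Tfrc, the transferrin receptor, stood at 0.36, Bpgm at 0.18 and Rhag at -0.021, so the membrane genes were not equally lower. No globin gene had a named probe here, and globins were not analysed here.

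Heme synthesis gave a contrast between the erythroid and the general form of its first enzyme. Alas2, the erythroid form, had signals of 1161 and 1234 and a ratio of -0.54, while Alas1, the form of hepatocytes and other cells, had signals of 1964 and 3687 (ratio 0.24). The later enzymes Alad, Urod and Ppox had ratios of -0.76, -0.78 and -0.80, and Fech, which inserts the iron, -0.30. Of the 10 genes 4 were at least 1.5-fold lower and 1 was above 0, with a median of -0.51.

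Promoters of 2 lower erythroid genes are shown for the GATA site AGATAA, which the erythroid factor GATA-1 binds, in capitals, or as its reverse complement TTATCT. They are the 250 bases before the start on the gene's strand (RefSeq, GRCm38.p6), for Rhd chr4:134864286-134864535 (plus strand) and for Tal1 chr4:115056176-115056425 (plus).
Rhd: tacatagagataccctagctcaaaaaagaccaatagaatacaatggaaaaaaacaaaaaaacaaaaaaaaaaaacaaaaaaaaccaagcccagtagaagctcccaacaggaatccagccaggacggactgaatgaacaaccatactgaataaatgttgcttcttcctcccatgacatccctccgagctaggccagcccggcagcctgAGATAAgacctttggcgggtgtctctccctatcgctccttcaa
Tal1: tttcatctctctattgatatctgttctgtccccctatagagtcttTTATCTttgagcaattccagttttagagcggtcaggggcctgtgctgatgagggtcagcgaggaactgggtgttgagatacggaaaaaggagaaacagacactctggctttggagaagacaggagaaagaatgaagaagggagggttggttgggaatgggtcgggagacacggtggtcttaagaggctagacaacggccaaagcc
On both strands the site was in 6 of 20 erythroid promoters with an entry (30.0%), in 6.78% of the promoters of detectable genes and in 10.2% of all promoters. The gluconeogenesis and glycogen list had the same share, 3 of 10 (30%). Vascular genes had 15.4%, heme synthesis 12.5%, amino acid breakdown 11.8%, and the sterol, respiratory chain and glucocorticoid lists 0. The KLF1 site CCACACCCT was in 0 of the 20 and in 0.597% of detectable genes' promoters.

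Other blood lineages lay closer to 0. Macrophage and Kupffer cell genes had a median of -0.24, with 5 of 24 above 0 and 2 at least 1.5-fold lower. Tyrobp, a signalling adaptor, and Cd5l, a Kupffer cell product, had ratios of -0.79 and -0.62, while the resident markers Clec4f, Timd4 and Vsig4 had ratios of -0.16, 0.16 and -0.00089, and the scavenger receptor Cd163 0.36. Of the neutrophil genes, the secondary granule and late genes Camp, S100a9 and S100a8 had ratios of -0.77, -0.87 and -0.43, and the early granule genes Prtn3, Ctsg and Mpo -0.038, 0.069 and -0.23. Medians were -0.17 for neutrophils, 0.028 for megakaryocytes and platelets and -0.013 for lymphoid genes. No member of these 4 lists passed 2-fold in either direction. The shares over all genes, 0.558% higher and 1.45% lower, would give few there. Cell cycle genes had a median of -0.22, with 4 of 35 above 0, Ccna2 at -0.61, Top2a at -0.52 and Pcna at -0.055. Relative to all genes this median was 0.00071 under median centring.

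**Figure D4:**
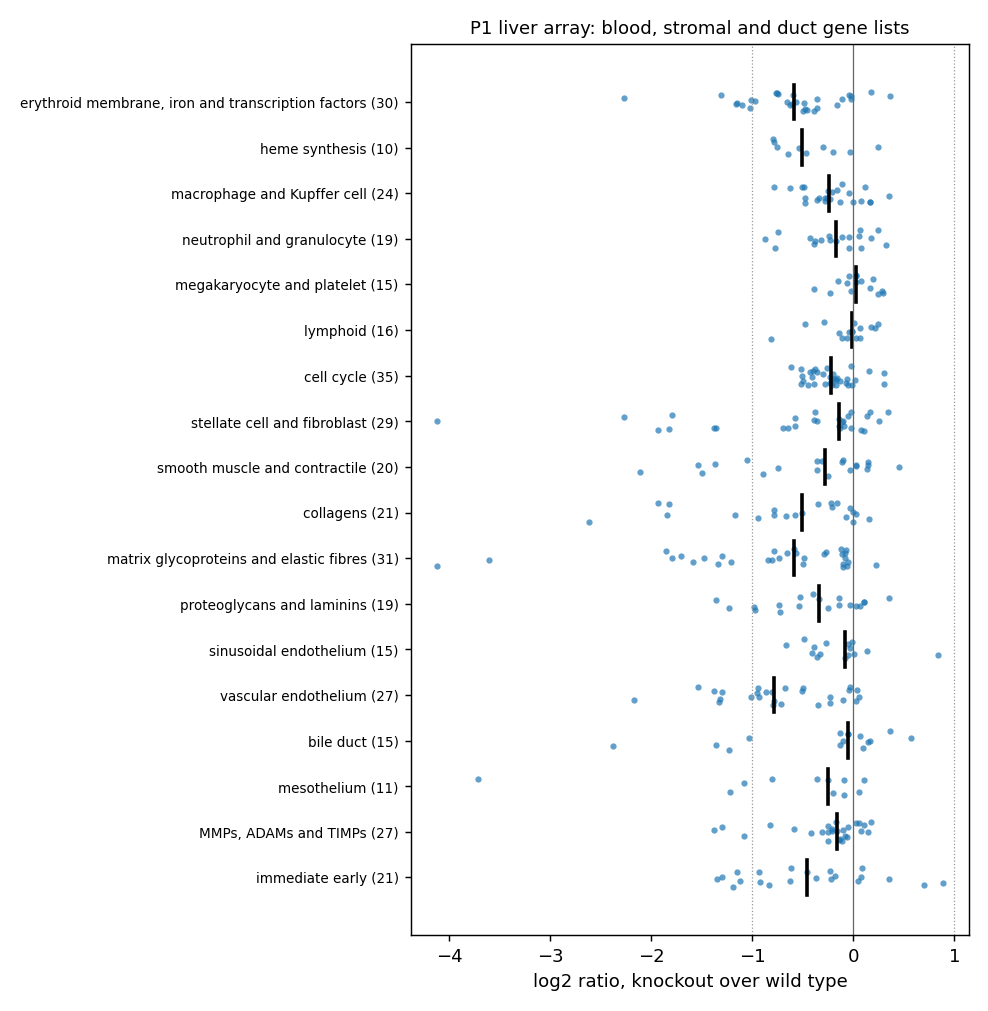
Log2 ratio of knockout over wild type (horizontal axis) for each detectable gene of the P1 liver array, by list of blood, stromal, vessel and duct genes (vertical axis, number of genes in brackets). The cell cycle, protease and immediate early lists are shown with them. Points are genes, black bars are list medians and dotted lines mark 2-fold; the erythroid median is -0.58 and the vascular endothelial median -0.78, against -0.09 for sinusoidal endothelium.

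General vessel genes were lower, with a smaller shift for genes of liver sinusoids. Of 27 vascular endothelial genes 3 were above 0, 16 were past 1.5-fold on the lower side and 7 past 2-fold, with a median of -0.78 (-1.11 in the authors' deposited table). Cldn5, a tight junction protein of vessels, had signals of 1096 and 376 and a ratio of -2.16, which was 1.22 when the local background entered the correction. Icam2, Ramp2 and Cd34 had ratios of -1.38, -1.33 and -1.32, and Pecam1, found on nearly all endothelium, signals of 334 and 253 (ratio -0.95). No gene of the vascular list is in a lung list, so leaving those out takes nothing from it. Genes of liver sinusoidal endothelium had a median of -0.085 (-0.34 in the authors' deposited table). Of its 15 members 0 passed 2-fold, where the shares over all genes (0.558% higher, 1.45% lower) would give few. The scavenger receptors that mark sinusoids, Stab1 and Stab2, had signals of 523 and 863 (ratio 0.14) and of 225 and 319 (ratio -0.015). Dnase1l3 stood at -0.085 and Lyve1 at -0.39. The summed signal of alveolar type 2 genes was 31698 in the wild-type pool and 1522 in that of the knockout. The part of lung vessels in this difference was not tested.

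Stellate cell and fibroblast genes divided in a like way. The 29 members had a median of -0.14 (-0.50 in the authors' deposited table), and 7 of them were lower by 2-fold or more. Lrat, which stores vitamin A and defines stellate cells, had signals of 68.0 and 104 and a ratio of -0.055. Reln, Des and Colec10, also of stellate cells, had ratios of -0.089, -0.14 and 0.13, Lhx2, their transcription factor, 0.26 and Hgf, their growth factor, -0.026. The fibroblast genes of many organs were lower: Col3a1 had signals of 1430.04 and 580.02 (ratio -1.93), Fbln5, an elastic fibre protein, signals of 477 and 208 (ratio -1.79), Vim signals of 2122 and 1281 (ratio -1.38), and Tcf21, a mesenchymal transcription factor, signals of 758 and 242 (ratio -2.27). Mfap4, which the lung stroma list also holds, had signals of 916 and 93.3 (ratio -4.12). The stellate-defining genes were dim, and their ratios are drawn to 0 by the offset: in the authors' deposited table Lrat stood at -0.30, Reln at -0.50 and Lhx2 at 0.31.

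Matrix genes were lower as a group. Of 31 matrix glycoproteins 1 was above 0, 16 were at least 1.5-fold lower and the median was -0.59 (-0.58 without the 1 lung-list gene). Mgp, which keeps vessels and cartilage free of mineral, had signals of 759.6 and 106 and a ratio of -3.60, Sparcl1 signals of 345 and 146 (ratio -1.85), and Fbn1, the main microfibril protein, signals of 395 and 183 (ratio -1.70). Fn1, which hepatocytes also secrete, had signals of 13015 and 20366 (ratio -0.13). Collagens had 9 of 21 members at least 1.5-fold lower and a median of -0.51, or -0.43 without the 1 lung-list gene. The 2 chains of type I collagen had a ratio of -0.58 for Col1a1 and -1.82 for Col1a2, and the paired basement membrane chains -0.21 for Col4a1 and -1.85 for Col4a2. Their signals were 93.4 and 99.97 for Col1a1, 762 and 327 for Col1a2, 68.2 and 96.2 for Col4a1 and 1015 and 432 for Col4a2, so the chain with the smaller ratio was the dimmer one in both pairs, and the authors' deposited table gave -1.81, -1.98, -0.99 and -1.91 in the same order. Proteoglycans and laminins had a median of -0.34, with 5 of 19 above 0 and 2 lower by 2-fold or more. Of the laminin chains Lamb3, of epithelial basement membranes, stood at -1.23 (deposited -2.96), Lamc1 at -0.98, Lamb2 at -0.97 and Lama1 at 0.064.

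Smooth muscle genes were lower, with a median of -0.28 (-0.64 in the authors' deposited table, -0.30 without the 2 lung-list genes) and 5 of 20 members lower by 2-fold or more. Acta2, the smooth muscle actin, had signals of 366 and 132 and a ratio of -2.11 (deposited -3.12), Tagln signals of 196 and 107 (ratio -1.54, deposited -3.03), and Myh11, the most specific of them, signals of 68.6 and 89.3 (ratio -0.36). Of 15 bile duct genes, whose median was -0.051, 4 were lower by 2-fold or more. Sox9 and Spp1 stood at 0.17 and -0.13, and Epcam and Aqp1, which lung also expresses, at -1.23 and -1.36. Of 11 mesothelial genes, whose median was -0.25, 3 were lower by as much. Wt1 and Upk3b had ratios of 0.10 and -0.20, Msln and Podxl -1.08 and -1.22. Cav1 at -3.71, with signals of 1196 and 149.7, is also in the alveolar type 1 list.

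Proteases and inhibitors related to Mmp14 had a median of -0.16, and of -0.69 in the authors' deposited table. Of 27 detectable genes 3 passed 2-fold on the lower side (6 in the deposited table) and 0 on the higher side. Timp3, an inhibitor bound to matrix, had signals of 522 and 299 and a ratio of -1.38, Mmp11 signals of 192 and 119.7 (ratio -1.30, deposited -2.39), and Mmp2, which MMP-14 activates, signals of 187 and 134 (ratio -1.08, deposited -1.88). Timp2, the inhibitor through which MMP-14 binds pro-MMP-2, stood at -0.25. Among the membrane-type relatives Mmp15 had a ratio of -0.16, Mmp17 -0.084 and Mmp24 0.08, so none of the 3 was past 1.5-fold in either direction.

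Immediate early genes were lower in part. Of 21 genes 10 were at least 1.5-fold lower and 2 higher by as much, with a median of -0.46. Fos and Egr1, activated within minutes of growth factor signals, had signals of 229.6 and 140.3 (ratio -1.30) and of 332 and 224 (ratio -1.12), and Ier3 stood at -1.35. Gadd45b, a stress gene of liver, had signals of 353 and 968 (ratio 0.89), and Myc signals of 164 and 378 (ratio 0.70). The list thus held genes on both sides and is not described as one response.

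**Figure D5:**
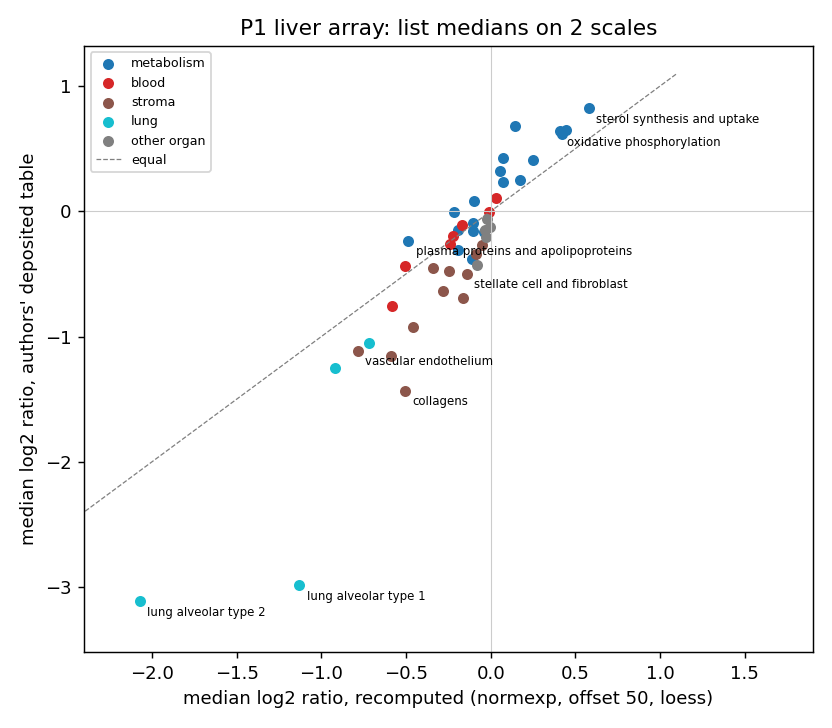
Median log2 ratio of each gene list recomputed here (horizontal axis) against the median in the authors' deposited table (vertical axis), P1 liver array, coloured by compartment. Points are lists and the dashed line marks equal values; collagens lie at -0.51 and -1.43, and sterol synthesis at 0.58 and 0.82.

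The recomputed and deposited scales gave the lists different sizes. Alveolar type 1 genes (from -1.13 to -2.99), alveolar type 2 genes (from -2.07 to -3.11) and collagens (from -0.51 to -1.43) lay lower in the deposited table. The 184 genes with wild-type signals from 3000 to 10000 had a median of 0.026 here and 0.31 there. The median of amino acid breakdown was 0.65 there and that of the urea cycle 0.43.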

How the data were processed

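Amplified RNA of whole liver was labelled through amino allyl coupling, per the labels' protocols. Raw intensities of each spot in both channels are in the deposited scanner output, per the file headers. The authors also deposited log2 ratios of knockout over wild type, which equal the blank-subtracted ratio centred on the array median (Pearson correlation 1 against the scanner values, column median -2.74e-05). The headers list straight-line fits between several gain settings of each channel, and the sources used here do not say how these entered the intensities.

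All values were recomputed in R 4.3.3 (limma 3.58.1): normexp without local background (offset 50), then loess with control spots at weight 0, and spots, then probes of a gene, were averaged. A channel was detectable above the mean plus 2 SD of the blank spots after 5% was trimmed at each end. Of 27456 spots, 2736 were blank, and of 23473 gene probes 16631 had 1 gene symbol and 6842 were unnamed. Symbols were updated through RefSeq (12622 current, 3947 updated, 62 kept). The 48 gene lists and the members were chosen with earlier results of these data known. Named genes were up to 4 members at each end of each list, 15 genes at each end of the array and genes fixed by name, and other genes were picked after their values were seen. Some genes are in several lists. No list was tested, and a list is called higher or lower when its median differs from that of all genes by at least 0.25. The steps were tested on simulated data. Alternatives were the authors' ratios, median centring, print-block loess, other offsets and backgrounds, other detection rules, the brightest probe of a gene, and leaving out whole-number readings or lung genes. Promoters came from a RefSeq table (GRCm38.p6), with 1 window of 250 bases per gene.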

Additional observations from a re-analysis of the deposited data

Results flagged for a closer look

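For 8 of the 441 named genes the knockout lay on the higher side on one array and on the lower side on the other, each by at least 1.5-fold. Genes outside the named ones were not searched, so the 8 are not a full count. Crip2, for example, had -1.06 in P1 liver and 0.69 in E14 Dlk+ cells. There is 1 array for each material, so none of these differences was tested, and stage, sorting and tissue cannot be told apart. The P1 log2 ratio minus the E14 log2 ratio was 3.52 for Mt2 (1.51 in P1 liver and -2.01 in E14 Dlk+ cells) and 2.88 for Mt1 (1.498 and -1.38), the metallothionein genes. Mt1 was read as a whole number on both arrays and Mt2 on the E14 array. The other 6 were lower in P1 liver: the difference was -3.43 for Fhl1 (-2.57 and 0.86), -2.89 for Tcf21 (-2.27 and 0.63), -2.49 for Col4a2 (-1.85 and 0.65) and -2.22 for Tagln (-1.54 and 0.68). It was -1.79 for Igfbp7 (-0.86 and 0.93, but 0.842 in P1 liver with the local background, which ends the opposite direction) and -1.52 for Adamts1 (-0.83 and 0.70). These 6 are genes of stroma or vessels, and Fhl1 is also in a lung list. The part of the lung signal in the wild-type P1 pool in these values was not tested.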

How the results depend on the processing

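Each value was recomputed under 10 alternatives. The counts of genes at least 2-fold higher (71) and lower (185) became 403 and 641 in the authors' deposited ratios, 274 and 117 under median centring, 111 and 348 with an offset of 10, and the higher count 342 with the local background. Medians of the 13 main lists, here relative to all genes, moved by more than the spread between probes of a gene in 16 comparisons and not in 114, and those of the other 33 lists in 30 and not in 296. In the deposited ratios the main medians moved to 0.83 for sterol synthesis, -0.22 for plasma proteins, -0.49 for stellate, -0.63 for smooth muscle, -1.42 for collagen, -1.14 for matrix glycoprotein, -1.10 for vascular and -0.91 for immediate early genes. Under median centring they moved to 0.80 for amino acid breakdown, -0.0034 for plasma proteins and 0.00071, a change of sign, for cell cycle genes. Of the other liver and blood lists, median centring also turned coagulation (0.20), ribosomal (0.28), neutrophil (0.098) and fatty acid synthesis genes (0.070), the deposited ratios turned ribosomal (0.096), coagulation (0.0037) and lymphoid genes (0.0036), the local background turned ribosomal (0.11), fatty acid synthesis (0.034), lymphoid (0.032) and urea cycle genes (-0.041), print-block loess turned urea cycle genes (-0.0084) and the brightest probe lymphoid genes (0.0032). The intestine and muscle medians, at about 0, changed sign under 2 settings each. With an offset of 10 the main medians moved to -0.87 for collagens, -0.86 for matrix glycoproteins and -1.04 for vascular genes, and with the local background to -0.27 for collagens and -0.48 for vascular genes. Ratios of the 441 named genes moved by more than that spread, without a counted change of sign, in 739 comparisons and not in 3602. In the deposited ratios 239 moved and 202 did not. Changes of sign were counted only for named genes with a main ratio of at least 1.5-fold in size, and there were 9. With the local background these were Blvrb (0.38), Cldn5 (1.22), Cnn2 (1.29), Hsd3b1 (0.36), Igf2 (2.80), Igfbp7 (0.84), Plin2 (0.24) and Rps3 (1.72), and under median centring Igfbp2 (0.0052). The cause was not tested. No paired analysis was possible because there is 1 array and no replicate number. Dim genes are limited by the blank noise, bright ones by the top of the scanner's range.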

Other observations

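Several of the highest genes of the P1 array belong to none of the metabolic lists. Retreg1, a receptor for the turnover of endoplasmic reticulum by autophagy, had signals of 383 and 2507 and a log2 ratio of 2.10. Upp2, the liver uridine phosphorylase, had signals of 235 and 1321 (ratio 1.93), Slc7a2, a transporter of basic amino acids, signals of 144 and 631 (ratio 1.62), and Ldhb, a lactate dehydrogenase subunit, signals of 349 and 1507 (ratio 1.53). Supt16, a subunit of the histone chaperone FACT, had signals of 116 and 417 (ratio 1.36), beside 1.26 in E14 Dlk+ cells. On the lower side, outside the lung lists, stood Wfdc2 (910.4 and 109, ratio -3.83) and S100a6 (2394 and 305, ratio -3.65), genes of many epithelia and mesenchymal cells, and S100g (1135 and 232, ratio -2.94), a calcium-binding protein gene. The summed signal of the alveolar type 2 list was 31698 in wild type and 1522 in knockout, and its part in these low ratios was not tested.

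Of the 6842 probes without a gene name here, 4478 were detectable in both channels. Among them 25 (0.558%) were higher and 36 (0.804%) lower by 2-fold or more, with ratios from -2.34 to 2.39.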
